A study of Mus musculus with 405 samples.

Results

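Dinitroaniline herbicides are weed killers built on an aniline ring whose nitrogen sits between a pair of nitro groups. They were present in a screen in which mouse cortical neuron cultures were exposed to 297 chemicals, and 8 of these 297 were dinitroanilines. The members were found by name, as benfluralin, butralin, ethalfluralin, flumetralin, oryzalin, pendimethalin, prodiamine and trifluralin, and no expression value entered the choice. Each was applied at 10 μM and was measured in 1 library. The reference was a group of 49 vehicle libraries from cultures that received dimethylsulphoxide, the solvent of the stocks. All cultures came from hybrid embryos of C57BL/6J dams and CAST/EiJ males, dated at embryonic day 15 by the labels, and all received an inhibitor of cell division at 3 days in vitro (DIV). Exposure began at DIV 7 and lasted 24 h, after which polyadenylated RNA was sequenced.

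These herbicides bind the tubulin of plants and protozoa and stop the growth of microtubules, the hollow fibres on which chromosomes are pulled apart and cargo is carried. Vertebrate tubulin binds most of them far less well. In a postmitotic neuron, microtubules fill axons and dendrites and serve as tracks for kinesins and dynein. Animal cells also sense free tubulin dimers, and an excess of dimers leads to decay of the mRNAs of alpha and beta tubulins, so tubulin mRNA falls after many drugs that take microtubules apart. Flumetralin is sold as a growth regulator that stops side shoots of tobacco, and the other 7 are used against weeds before emergence. Of the 8 compounds, 5 carry a trifluoromethyl group on the ring (benfluralin, ethalfluralin, flumetralin, prodiamine and trifluralin) and 3 do not. Butralin and pendimethalin have 1 alkyl group on the aniline nitrogen and the other 6 have 2 (1 of them a benzyl group in flumetralin).

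The values were deviations of each gene from its centre over all libraries, from which the authors had removed effects of culture and sequencing batch, and they are given here on the log2 scale relative to the mean of the vehicle libraries. The depth of the screen libraries is not known. Levels were therefore taken from 4 vehicle libraries of another experiment of the series, as CPM, the count of a gene scaled to a common library total, with totals between 2778615 and 7833440 counts. In them 18 neuron markers had a median of 228.6 CPM, 15 astrocyte markers one of 53.45 CPM and 13 neural progenitor markers one of 16.1 CPM. Medians were 6.08 CPM for fibroblast markers, 2.08 CPM for oligodendrocyte lineage markers, 1.55 CPM for microglia markers and 0.471 CPM for endothelial and mural markers. Neuron markers were thus the highest, as the label of cortical neurons says, with astrocyte markers next. Differences were tested with limma, with p-values adjusted by the Benjamini-Hochberg method over all 13304 genes and a threshold of 0.05. The labels name no separate cultures behind the libraries, so the p-values measure only the spread between these samples.

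Set against vehicle as a class, the 8 dinitroanilines had more genes called lower than higher. Limma's test called 267 of 13304 genes (2.01%), of which 207 were lower (1.56%) and 60 higher (0.451%). The test used a common spread for compounds and vehicles, to which the more numerous vehicle libraries contributed most. Its standard errors and p-values therefore do not measure how alike the compounds were. At an unadjusted p under 0.05 there were 1984 genes. The genes called lower included the dopamine receptor Drd2, the adenosine receptor Adora2a, the activity-regulated transcription factors Egr1, Egr3 and Egr4, the fatty acid synthase Fasn and the potassium channel Kcnh3. Among the genes called higher were the p53 target Pmaip1, the actin-associated Zfp185 and the lysosomal-type mannosidase Man2b2. The median difference over all genes was -0.0072 on the log2 scale.

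The compounds did not contribute alike to this class difference. Over the 207 genes called lower, the median deviation was -0.58 with flumetralin, -0.35 with pendimethalin, -0.28 with prodiamine, -0.26 with ethalfluralin, -0.24 with butralin, -0.22 with oryzalin, -0.18 with benfluralin and -0.16 with trifluralin. Of these genes, 111 lay below the vehicle mean with 8 of 8 compounds, 83 with 7, 12 with 6 and 1 with 5. Of the 60 genes called higher, 45 lay above the vehicle mean with all 8 compounds. These counts rest on the libraries in which the genes were called and only describe them. Without flumetralin the test called 74 genes, without pendimethalin 147, and without trifluralin 368. In the vehicle count libraries of the other experiment, 13 of the 207 lower genes were under 10 CPM, with 17 of the 60 higher genes and 4001 of all 13304.

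The largest falls of the class were in receptors and activity-regulated genes. Drd2, which encodes the D2 dopamine receptor, deviated by -0.12 with benfluralin, -2.29 with butralin, -1.66 with ethalfluralin, -0.85 with flumetralin, -0.85 with oryzalin, -0.52 with pendimethalin, -0.35 with prodiamine and -3.40 with trifluralin. Vehicle libraries lay between -2.18 and 1.35 with a median of 0.09. All 8 compounds were below the vehicle median, and only butralin and trifluralin were below every vehicle library. The class difference of Drd2 was -1.25 (standard error 0.28, adjusted p = 0.00722), at a level of 2.92 CPM. It did not pass when flumetralin and trifluralin were left out together.

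Adora2a encodes an adenosine receptor, which neurons with D2 receptors carry in the striatum. It deviated by -1.39 with benfluralin, -1.44 with butralin, -3.36 with ethalfluralin, -0.58 with flumetralin, 0.21 with oryzalin, -0.53 with pendimethalin, -0.86 with prodiamine and -0.01 with trifluralin, against -1.70 to 0.85 in the vehicle libraries. Ethalfluralin alone lay below all vehicles, and oryzalin and trifluralin sat in the middle of them. The class difference was -0.996 (standard error 0.21, adjusted p = 0.00427), and no removal of a compound ended this call. That standard error came mostly from the spread of the vehicle libraries, while the compounds themselves ranged from -3.36 to 0.21.

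Early growth response (Egr) genes encode zinc finger factors that neurons switch on within minutes of synaptic activity. Egr1 deviated by -0.19 with benfluralin, -1.36 with butralin, -0.05 with ethalfluralin, -1.68 with flumetralin, -0.72 with oryzalin, -1.21 with pendimethalin, -0.87 with prodiamine and -0.10 with trifluralin. The vehicle libraries spanned -0.66 to 0.61 with a median of 0.02. Butralin, flumetralin, oryzalin, pendimethalin and prodiamine thus lay below all 49 of them, whereas benfluralin, ethalfluralin and trifluralin were inside the range.

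Egr1 had a class difference of -0.77 (standard error 0.13, adjusted p = 2.06e-04). Egr3 fell by 0.99 (standard error 0.19, adjusted p = 0.00154) and was lowest with flumetralin, at -2.66. Egr4 fell by 1.20 (standard error 0.27, adjusted p = 0.00762), with 5 compounds below all vehicles and trifluralin at 0.88. Leaving out a compound ended neither the call of Egr1 nor that of Egr3, and the call of Egr4 was lost without flumetralin or without pendimethalin. In the list of 36 activity-induced early genes, these 3 were called lower, where 1.56% of all genes were. Like all gene lists here, this list was chosen with earlier results of these data known, so its counts are descriptions. The other 33 members were not called, and 23 of the 36 had differences above 0. The list median was 0.05, beside -0.0072 for all genes.

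The other named falls were of diverse function. The zinc transporter Slc39a5 fell by 0.90 (adjusted p = 0.0274), the neuronal calcium-binding protein Necab3 by 0.88 (adjusted p = 5.39e-04), the small GTPase Rem2 by 0.85 (adjusted p = 0.0151) and the noncoding snoRNA host gene Snhg3 by 0.80 (adjusted p = 0.0456). Necab3 was lower with all 8 compounds, from -1.40 with ethalfluralin to -0.28 with prodiamine, and its call withstood each removal. Slc39a5, at 1.07 CPM, lost its call in 5 of 8 removals and Snhg3, at 3.38 CPM, in 6, while Rem2 lost its call without flumetralin or pendimethalin. The strip plot of the class genes shows each compound on the range of the vehicle libraries.

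**Figure D1:**
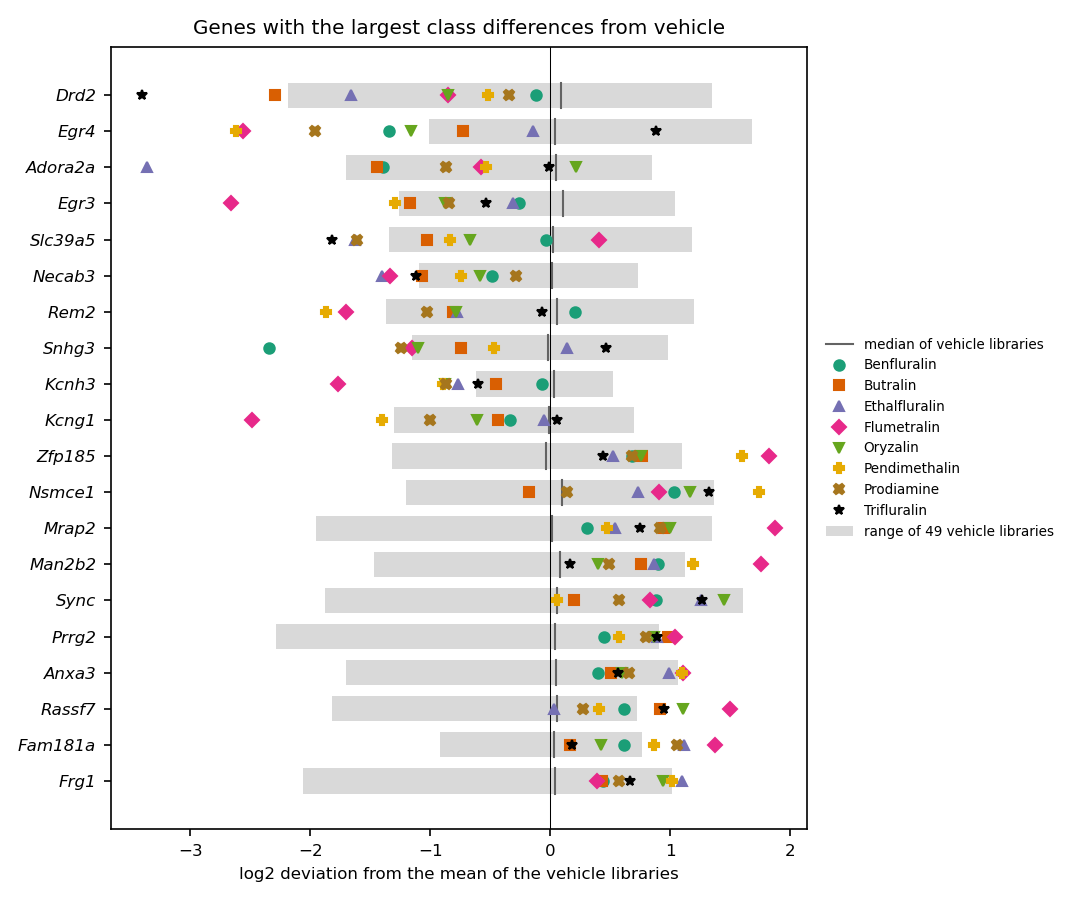
Genes with the 10 largest falls and 10 largest rises of the class against vehicle. The horizontal axis is the log2 deviation from the mean of the vehicle libraries, symbols are the 8 compounds (1 library each), grey bars are the range of 49 vehicle libraries and grey ticks their median. Drd2 reached -3.40 with trifluralin and Adora2a -3.36 with ethalfluralin, outside the vehicle range, while most values of the rising genes lay within it.

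Each of the 10 largest rises lost its call in at least 1 of the 8 removals of a compound. Zfp185, a LIM domain protein of the actin cytoskeleton, rose by 0.91 (adjusted p = 0.0096), with 0.44 (trifluralin) as the lowest compound and 1.82 (flumetralin) as the highest. Man2b2 rose by 0.82 (adjusted p = 0.00809) and Fam181a by 0.72 (adjusted p = 0.0115). All 3 calls were lost without flumetralin, and that of Zfp185 also without pendimethalin. Nsmce1, a subunit of the SMC5/6 complex of DNA repair, rose by 0.86 (adjusted p = 0.0388). The melanocortin receptor accessory protein Mrap2 rose by 0.85 (adjusted p = 0.04995), the filament protein gene Sync by 0.82 (adjusted p = 0.045), Prrg2 by 0.81 (adjusted p = 0.0462), the annexin Anxa3 by 0.74 (adjusted p = 0.0345), Rassf7 by 0.73 (adjusted p = 0.0458) and Frg1 by 0.69 (adjusted p = 0.0348). For Mrap2 and Prrg2 the call ended in 7 of 8 removals, for Nsmce1, Rassf7 and Sync in 6, and for Anxa3 and Frg1 in 4.

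Fasn builds palmitate, the first fatty acid made by a cell, and it was among the genes that differed most from other chemicals of the screen. This gene and the others of lipid supply described with it were chosen after their values were seen. Fasn deviated by -0.49 with benfluralin, 0.16 with butralin, -0.37 with ethalfluralin, -1.11 with flumetralin, -0.20 with oryzalin, -0.36 with pendimethalin, -1.05 with prodiamine and -0.85 with trifluralin, and the vehicle libraries lay between -0.54 and 0.29. Flumetralin, prodiamine and trifluralin were below all 49 vehicles, and butralin was the one compound above the vehicle median. The gene lies on chromosome 11 from 120667254 to 120685492 in mm9 and had 1220 CPM ± 122 (SD, n = 4) in the vehicle count libraries. Its class difference was -0.53 (standard error 0.08, adjusted p = 6.46e-05). Tested alone, flumetralin (adjusted p = 4.19e-05), prodiamine (adjusted p = 0.0015) and trifluralin (adjusted p = 0.00311) each passed limma's test for Fasn.

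Other genes of lipid supply were lower with some of the same compounds. Srebf1, whose protein switches on fatty acid synthesis genes, fell by 0.41 (adjusted p = 0.0266), with -1.23 for pendimethalin, -0.97 for prodiamine and 0.38 for ethalfluralin as extremes. Rnf145, a sterol-regulated ubiquitin ligase, fell by 0.39 (adjusted p = 0.00161) and was below all vehicles with flumetralin (-1.06) and prodiamine (-0.91). The sterol exporter Abcg1 fell by 0.38 (adjusted p = 0.00644), with compounds from -0.57 to -0.13. Mylip, which marks the LDL receptor for degradation, differed by -0.43 (adjusted p = 0.0549) and did not pass. A list of 23 targets of the lipid regulators SREBP1 and LXR was also drawn up after the values were seen. Of these, 4 were called lower (Fasn, Srebf1, Rnf145 and Abcg1) and none higher, with a list median of -0.07. The count is a description, to be read beside the 1.56% of all genes called lower. Srebf1 lost its call without flumetralin, pendimethalin or prodiamine. The synthesis enzymes Acaca (-0.24, adjusted p = 0.055), Scd1 (-0.26, adjusted p = 0.182), Acly (-0.07) and Scd2 (-0.08) did not pass.

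**Figure D2:**
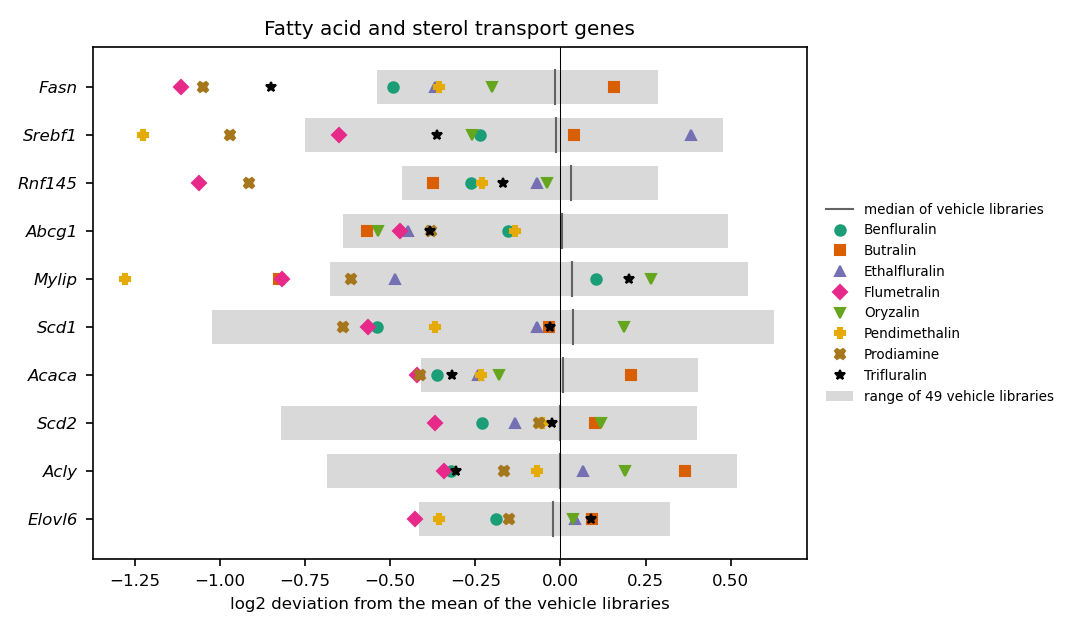
Genes of fatty acid synthesis and sterol handling, chosen after their values were seen. The horizontal axis is the log2 deviation from the mean of the vehicle libraries, symbols are the 8 compounds, grey bars the range and grey ticks the median of 49 vehicle libraries. Flumetralin (-1.11), prodiamine (-1.05) and trifluralin (-0.85) lay below the vehicle range for Fasn, and butralin (0.16) lay above its median.

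A further set of genes, also chosen after their values were seen, was below the vehicle mean with every compound. B4galt5 makes lactosylceramide, the precursor of gangliosides, and deviated by -0.31 with benfluralin, -0.21 with butralin, -0.36 with ethalfluralin, -0.81 with flumetralin, -0.18 with oryzalin, -0.40 with pendimethalin, -0.84 with prodiamine and -0.46 with trifluralin. All 8 values were negative, and 4 were below the lowest of the vehicle libraries, which reached from -0.37 to 0.32. Its class difference was -0.45 (standard error 0.06, adjusted p = 1.22e-05). The small membrane protein gene Snn fell by 0.41 (adjusted p = 6.46e-05), the Nogo receptor homologue Rtn4rl2 by 0.58 (adjusted p = 6.31e-04), the phospholipid acyltransferase Lpcat1 by 0.75 (adjusted p = 7.76e-04) and Tmem50b by 0.33 (adjusted p = 6.46e-05). Each of these was below the vehicle mean with all 8 compounds, and no removal of a compound ended a call among them.

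Calls were also made among genes of striatal projection neurons and potassium channels. These lists were drawn up after the values were seen, so their counts are descriptions, to be read beside the 1.56% of all genes called lower. Of 21 striatal markers, 5 were lower, among them Drd2, Adora2a, Drd1a and Ppp1r1b, and none higher, with a median of -0.20 beside -0.0072 for all genes. The D1 dopamine receptor Drd1a fell by 0.51 (adjusted p = 0.0149), with -1.67 for pendimethalin. Ppp1r1b, the phosphatase inhibitor DARPP-32, fell by 0.50 (adjusted p = 0.00873). Both were below the vehicle mean with all 8 compounds. The call of Drd1a was lost without flumetralin or pendimethalin, and that of Ppp1r1b without flumetralin. Potassium channels set the resting potential and end action potentials. Of 65 channel genes, 10 were lower and none higher, with a median of -0.12 and 54 of 65 differences below 0.

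Kcnh3, an ether-a-go-go type channel of the forebrain, deviated by -0.06 with benfluralin, -0.45 with butralin, -0.77 with ethalfluralin, -1.76 with flumetralin, -0.88 with oryzalin, -0.89 with pendimethalin, -0.87 with prodiamine and -0.60 with trifluralin, against -0.61 to 0.53 in vehicle libraries. It lay below all vehicles with 5 compounds and fell by 0.79 as a class (standard error 0.12, adjusted p = 6.46e-05). Kcng1 fell by 0.78 (adjusted p = 0.0128), Kcnq3 by 0.66 (adjusted p = 0.0409), Kcnv1 by 0.47 (adjusted p = 0.00239) and Kcnt1 by 0.45 (adjusted p = 0.0258). Kcnq3 lost its call in 6 of 8 removals and with trends on length and GC content removed. The call of Kcnt1 was lost without ethalfluralin, flumetralin or pendimethalin, and that of Kcng1 without flumetralin or pendimethalin. The 3 HIVEP genes encode large zinc finger transcription factors and were chosen after their values were seen, so their calls are a description. All were called lower, Hivep1 at -0.30 (adjusted p = 0.00917), Hivep2 at -0.51 (adjusted p = 2.38e-04) and Hivep3 at -0.61 (adjusted p = 1.95e-04), and Hivep1 lost its call without flumetralin or pendimethalin. Netrin-G2, from Ntng2, fell by 0.63 (adjusted p = 6.46e-05) and was lowest with pendimethalin (-1.22) and oryzalin (-1.15).

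Neuron markers and synaptic genes also held calls, all of them lower, where 1.56% of all genes were called lower. Of 18 neuron markers, 3 were called lower and none higher: Rbfox3, which encodes NeuN, at -0.39 (adjusted p = 0.00115), the vesicular glutamate transporter Slc17a7 at -0.30 (adjusted p = 0.00644) and the transcription factor Neurod2 at -0.22 (adjusted p = 0.0284). Of 34 genes of synaptic vesicles and release, 4 were called lower and none higher: Sv2b at -0.37 (adjusted p = 8.9e-04), Cplx2 at -0.31 (adjusted p = 7.87e-04), Rph3a at -0.41 (adjusted p = 0.00873) and Slc17a7 again. The call of Slc17a7 was lost without flumetralin, that of Neurod2 without flumetralin or pendimethalin and with trends on length and GC content removed, and that of Rph3a without butralin or flumetralin. Flumetralin gave the lowest value for Rbfox3 (-0.81), Neurod2 (-0.71), Slc17a7 (-0.60), Sv2b (-1.09) and Cplx2 (-0.59). The list medians were -0.05 for neuron markers and -0.07 for synaptic genes. Per compound the neuron markers ranged from -0.13 to -0.02, inside the -0.18 to 0.25 of vehicle libraries. The synaptic medians ranged from -0.157 with ethalfluralin to -0.03 with trifluralin. Ethalfluralin alone lay outside the vehicle libraries there, just below their range of -0.154 to 0.28. In RNA from whole cultures, fewer neurons and less RNA per neuron cannot be told apart, and the part of the neuron share in the falls of receptors and channels was not tested. The screen table gives deviations, so no summed level of a marker list could be taken from it.

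Markers of other cells gave 1 call, where 2.01% of all genes were called. None of 13 astrocyte markers (median 0.04), 9 microglia markers (median 0.04), 3 endothelial and mural markers (median -0.06), 10 fibroblast markers (median 0.03) and 12 neural progenitor markers (median 0.06) was called in limma's test, and 0, 2, 0, 1 and 1 of them had an unadjusted p under 0.05. Of 9 oligodendrocyte lineage markers, the proteoglycan Cspg4 was called, at 0.47 (adjusted p = 0.0388), and its call ended in 6 of 8 removals. Single libraries varied more than the class. Microglia markers had a median of 0.82 with benfluralin, above the highest vehicle library (0.51), and fibroblast markers had one of -0.72 with trifluralin, just below the lowest (-0.71). The fibroblast median was 0.60 with prodiamine, above the highest vehicle library (0.56), and the oligodendrocyte median was 0.53 with oryzalin, above the highest (0.26). The part of these cells in the results was not tested.

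Genes induced by stress or xenobiotics gave few calls. Of 30 p53 targets, 2 were higher and 1 was lower, where 0.451% of all genes were called higher and 1.56% lower. Pmaip1 encodes the cell death protein Noxa and deviated by 0.37 with benfluralin, 0.40 with butralin, 0.35 with ethalfluralin, 0.55 with flumetralin, 0.51 with oryzalin, 0.22 with pendimethalin, 0.45 with prodiamine and 0.73 with trifluralin. Vehicle libraries reached from -0.47 to 0.50. All compounds were on the upper side, and 3 were above every vehicle.

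Pmaip1 rose by 0.45 as a class (standard error 0.08, adjusted p = 5.02e-04), and no removal of a compound ended the call. Perp, a membrane protein of p53-driven cell death, rose by 0.45 (adjusted p = 0.0372), and Sesn1, a sestrin, fell by 0.28 (adjusted p = 0.0336), with calls lost in 6 and 5 of 8 removals. Over the 30 targets the median was 0.09, and 24 were above 0. No gene was called by limma among 30 targets of the antioxidant regulator NRF2, 32 of the stress factor ATF4, 32 chaperones, 11 targets of the aryl hydrocarbon receptor, 30 genes of fatty acid oxidation, 69 respiratory chain subunits, 32 genes of glycolysis and hypoxia, 29 contractile genes or 34 mitotic genes. Between 2 and 8 members of each of these lists had an unadjusted p under 0.05. The members of smallest p were Gstm1 at 0.31 (adjusted p = 0.118), Slc7a5 at 0.13 (adjusted p = 0.231), Dnajb9 at -0.15 (adjusted p = 0.245), Nfe2l2 at 0.25 (adjusted p = 0.177), Plin2 at 0.74 (adjusted p = 0.215), Ndufs8 at 0.28 (adjusted p = 0.125), Slc2a3 at 0.23 (adjusted p = 0.055), Vim at 0.24 (adjusted p = 0.0576) and Aurkb at 0.74 (adjusted p = 0.0708). Some list medians of single libraries lay outside the vehicle range. For contractile genes the median was 0.51 with ethalfluralin and 0.36 with flumetralin, above the vehicles (up to 0.31). Also above were fatty acid oxidation with ethalfluralin (0.31) and p53 targets with benfluralin (0.21) and ethalfluralin (0.27). So were aryl hydrocarbon receptor targets with flumetralin (0.20) and trifluralin (0.17). The chaperone median with butralin (-0.12) lay below the range.

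**Figure D3:**
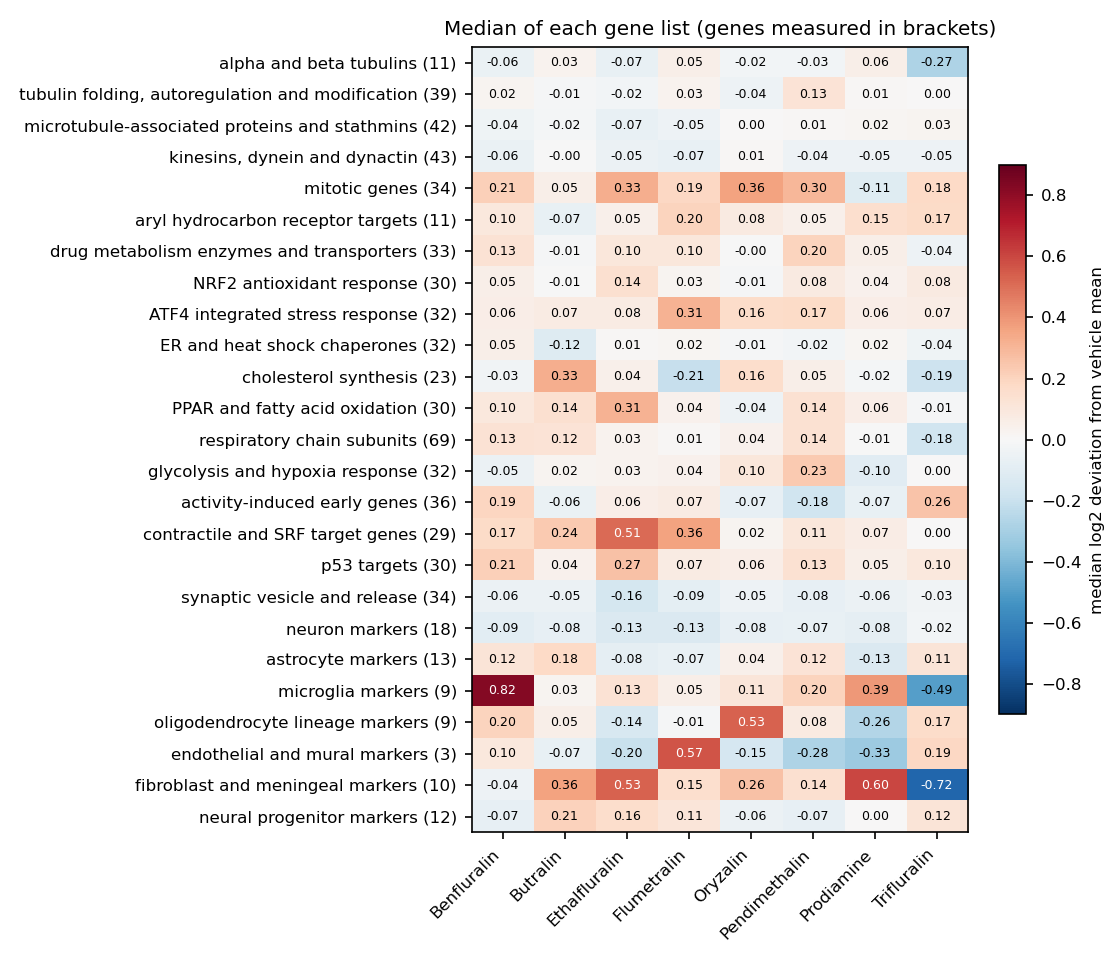
Median log2 deviation from the vehicle mean of each gene list (rows, number of measured genes in brackets) with each compound (columns), printed in the cells and coloured from blue (lower) to red (higher). Most medians lie near 0, and that of contractile genes with ethalfluralin (0.51) is above the vehicle range, which reached 0.31. The tubulin median of trifluralin, at -0.27, is the lowest of the 8 and within the vehicle range, which reached -0.35. Microglia and fibroblast markers vary from library to library.

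For tubulin, the known target of the class, values below the vehicle range came from trifluralin and oryzalin. They covered 5 of the 11 alpha and beta tubulin genes with trifluralin and 1, Tuba4a, with oryzalin. Of all 13304 genes, 610 lay below every vehicle library with trifluralin and 327 with oryzalin. Trifluralin deviated by -0.54 for Tuba1a, -0.53 for Tuba1b, -0.50 for Tubb3, -0.40 for Tubb2a and -0.36 for Tubb4a, and each of these values was below all 49 vehicle libraries. The other 7 compounds lay between -0.07 and 0.10 for Tuba1a, the main alpha tubulin of young neurons, and between -0.10 and -0.02 for Tubb3, the neuronal beta tubulin. Vehicle libraries spanned -0.33 to 0.31 for Tuba1a and -0.40 to 0.28 for Tubb3. No compound but trifluralin was thus outside the vehicle range for either gene. Over 11 alpha and beta tubulins the median deviation was -0.27 with trifluralin and between -0.07 and 0.06 with the others, all inside the -0.35 to 0.25 of vehicle libraries. No difference between trifluralin and another compound passed limma's test for a tubulin gene.

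Tested against vehicle, trifluralin passed limma's threshold for Tuba1a (standard error 0.13, adjusted p = 0.0208), Tubb3 (standard error 0.13, adjusted p = 0.0289) and Tubb2a (adjusted p = 0.0306), and not for Tuba1b (adjusted p = 0.0673) or Tubb4a (adjusted p = 0.146). Tubg1, whose gamma tubulin seeds microtubules, was also lower with trifluralin, at -1.85 (adjusted p = 0.0212). Among the 249 other chemicals at 10 μM, none was lower than trifluralin for Tuba1a, 2 were lower for Tuba1b, 5 for Tubb3, 6 for Tubb2a and 7 for Tubb4a. Some tubulin genes are closely similar in sequence, so reads can be split between them and the value of a single gene is uncertain. How reads were shared among them was not tested. The trifluralin library also had a trend on base composition, with a Spearman correlation across genes of -0.25 between deviation and GC content, below the -0.20 to 0.33 of vehicle libraries. With trends on length and GC content removed, Tuba1a was still called at -0.48, and Tubb3 (-0.35) and Tubb2a (-0.27) were not. With the spread taken from vehicles and other chemicals, Tuba1a was again called by limma (adjusted p = 0.0282), and Tubb3 (adjusted p = 0.0614) and Tubb2a (adjusted p = 0.0689) were not.

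As a class the dinitroanilines had 1 of the 11 tubulins called, where 2.01% of all genes were called. Tuba4a fell by 0.28 (adjusted p = 0.0389), from -0.56 with oryzalin to -0.0069 with trifluralin, and its call was lost in 6 of 8 removals. Tubb4a differed by -0.15 (adjusted p = 0.0578), Tubb3 by -0.11 (adjusted p = 0.287), Tuba1a by -0.04 (95% interval -0.15 to 0.07, adjusted p = 0.829) and Tubb5 by -0.02 (adjusted p = 0.896). Of 42 microtubule-associated proteins, 2 were lower and none higher, where 1.56% of all genes were called lower. Mapre2, a protein of growing microtubule ends, fell by 0.14 (adjusted p = 0.00129) and was below all vehicles with flumetralin (-0.31), prodiamine (-0.27) and trifluralin (-0.23). Clip3, a linker of membranes and microtubules, fell by 0.15 (adjusted p = 0.0115) and lost its call without trifluralin, which was at -0.44. Among 43 kinesin, dynein and dynactin genes only the light chain Dynll1 was called, at -0.20 (adjusted p = 0.0286), with its call lost in 4 of 8 removals. None of 39 genes of tubulin folding, autoregulation and modification passed limma's test, with 7 at an unadjusted p under 0.05.

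**Figure D4:**
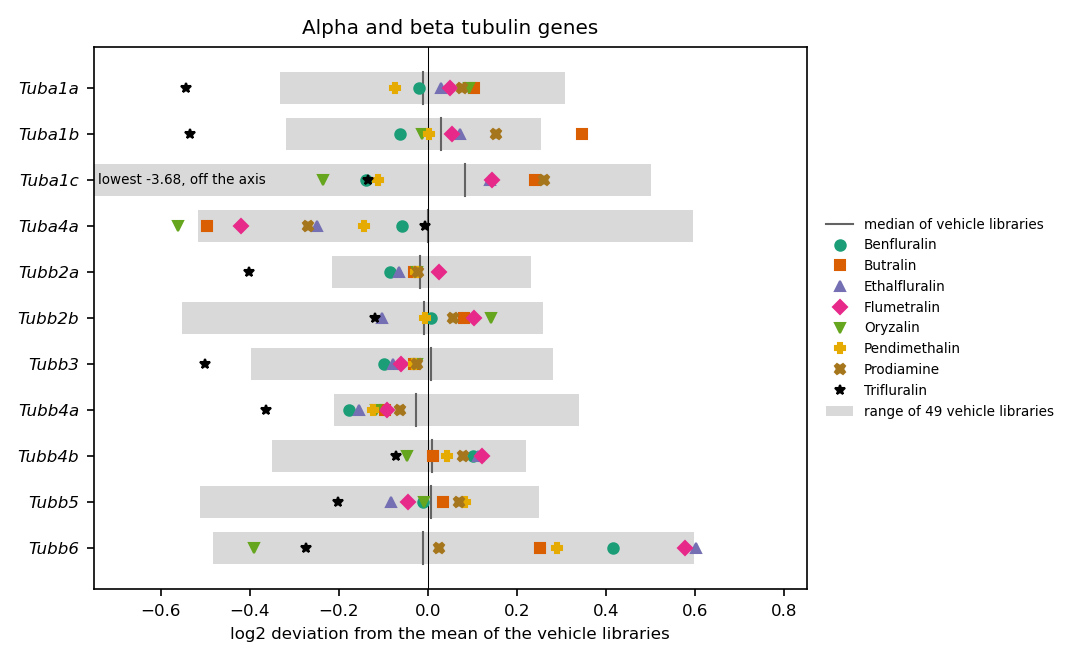
Alpha and beta tubulin genes. The horizontal axis is the log2 deviation from the mean of the vehicle libraries, symbols are the 8 compounds and grey bars the range of 49 vehicle libraries, whose lowest value for Tuba1c (-3.68) lies off the axis. Trifluralin lay left of the vehicle range for Tuba1a (-0.54), Tuba1b (-0.53), Tubb2a (-0.40), Tubb3 (-0.50) and Tubb4a (-0.36), and the other 7 compounds clustered near 0 for Tuba1a, Tubb2a and Tubb3.

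A second comparison asked which differences set the dinitroanilines apart from other chemicals at the same concentration. Against 249 other chemicals at 10 μM, each entered as the median of its libraries, limma's test called 45 genes (0.338%), 41 lower and 4 higher. The count was 13 without flumetralin, 23 without pendimethalin, 24 without prodiamine and 24 with single libraries in place of medians. The strongest were Fasn at -0.58 (standard error 0.09, adjusted p = 4.61e-07), B4galt5 at -0.43 (standard error 0.06, adjusted p = 4.61e-07), Rtn4rl2 at -0.56 (standard error 0.09, adjusted p = 3.03e-06) and Snn at -0.38 (standard error 0.06, adjusted p = 3.74e-06), and all 4 were called in each removal of a compound. The other chemicals had a median of 0.04 for Fasn and a 5th percentile of -0.29. Of the 8 dinitroanilines, 6 were below that percentile, and none of the 249 was below flumetralin. For B4galt5 the 5th percentile was -0.29, with 6 dinitroanilines below it, and for Rtn4rl2 it was -0.44 with 5 below it.

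The largest falls against other chemicals were in Slc39a5 (-1.02, adjusted p = 0.0357), Adora2a (-0.78, adjusted p = 0.0209), Lpcat1 (-0.68, adjusted p = 0.00561), Egr1 (-0.66, adjusted p = 0.0321) and Kcnh3 (-0.61, adjusted p = 0.0354). Slc39a5 and Kcnh3 lost their calls in 5 of 8 removals, Egr1 in 4, Adora2a in 3 and Lpcat1 without flumetralin. Pmaip1 rose by 0.38 (adjusted p = 0.00847), the scaffold protein gene Erbb2ip by 0.30 (adjusted p = 0.0207), the ribosome receptor Rrbp1 by 0.29 (adjusted p = 0.0236) and Smim15 by 0.24 (adjusted p = 0.0483). The rise of Rrbp1 came from trifluralin, at 1.02 where the other 7 lay between 0.09 and 0.21, and it did not pass without that library. Drd2, with -0.90 (adjusted p = 0.275), did not pass in this comparison. No tubulin gene passed, and Tuba4a differed by -0.14 (adjusted p = 0.663).

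In all, 6 other chemicals of the screen that act on tubulin or the spindle, at 10 μM, were the closest class by target: benomyl, chlorpropham, propyzamide, thiabendazole, thiazopyr and thiophanate. Between these and the dinitroanilines limma's test called 1 of 13304 genes (0.00752%), with 820 at an unadjusted p under 0.05. The gene was Rcsd1, which encodes a partner of the actin capping protein. With dinitroanilines it deviated by 1.39 (benfluralin), 0.69 (butralin), 1.31 (ethalfluralin), 1.71 (flumetralin), -0.45 (oryzalin), -0.22 (pendimethalin), 1.45 (prodiamine) and 0.32 (trifluralin). The others deviated by -1.56 (benomyl), -1.96 (chlorpropham), -0.29 (propyzamide), 0.28 (thiabendazole), -0.60 (thiazopyr) and -2.75 (thiophanate). The groups overlapped. The difference was 1.92 (95% interval 1.20 to 2.65, adjusted p = 0.0222) at a level of 1.07 CPM, and the call was lost without any of ethalfluralin, flumetralin, prodiamine, chlorpropham, thiophanate or benomyl.

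For the tubulins no gene passed between the 2 classes. With the antitubulin chemicals Tuba1a reached from -0.16 with benomyl to 0.17 with thiophanate, and Tubb3 from -0.24 to 0.03. The class difference was -0.03 for Tuba1a (95% interval -0.18 to 0.12) and -0.0079 for Tubb3 (95% interval -0.15 to 0.13), and it was 0.34 for Tubb6 (95% interval 0.07 to 0.61, adjusted p = 0.668). Trifluralin alone, at -0.54 for Tuba1a, was below all 6 of them. For Fasn the antitubulin chemicals lay between -0.31 and 0.16, and the dinitroanilines differed from them by -0.44 (95% interval -0.67 to -0.20, adjusted p = 0.293), which did not pass. Egr1 was lower with the antitubulin chemicals too, from -0.78 with chlorpropham to -0.016 with benomyl and a median of -0.54. It was not called between the classes, so its fall was not particular to the dinitroanilines. Over all genes the median half-width of the interval was 0.27, and for 64.8% of genes the whole interval lay within 0.5 on the log2 scale.

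Structure was compared first between groups of compounds. Between the 5 compounds with a trifluoromethyl group and the 3 without, limma called 0 of 13304 genes (0%), with 748 at an unadjusted p under 0.05. The smallest adjusted p was 0.116, for Trim65, at 1.68 (95% interval 0.99 to 2.37), where pendimethalin was at -2.84. Fasn differed by -0.64 (95% interval -0.92 to -0.36, adjusted p = 0.137), which did not pass. Tuba1a differed by -0.12 (95% interval -0.33 to 0.09) and Egr1 by 0.52 (95% interval 0.04 to 1.00, adjusted p = 0.872). Intervals had a median half-width of 0.37, and 82.1% of genes had an interval within 1 on the log2 scale. For the other genes larger differences remained possible, so the lack of calls does not show that the groups act alike.

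The second structural contrast set the 6 compounds with 2 alkyl groups on the aniline nitrogen against butralin and pendimethalin with 1. It called 0 genes (0%) by limma, with 746 at an unadjusted p under 0.05 and a smallest adjusted p of 0.0704. Fasn differed by -0.58 (95% interval -0.91 to -0.25, adjusted p = 0.531), Snn by -0.38 (95% interval -0.63 to -0.12, adjusted p = 0.741) and Egr1 by 0.68 (95% interval 0.15 to 1.21, adjusted p = 0.786). The median half-width was 0.41, and 77.9% of genes had an interval within 1.

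Each compound was then set against vehicle on its own. Since each had 1 library, the spread came from the 49 vehicle libraries, and the lone library was assumed to vary like them. Limma called 209 genes (1.57%) with flumetralin, 147 (1.1%) with trifluralin and 19 (0.143%) with pendimethalin. The counts were 9 (0.0676%) with benfluralin, 7 (0.0526%) with oryzalin, 7 (0.0526%) with prodiamine, 6 (0.0451%) with ethalfluralin and 2 (0.015%) with butralin. Among 238 other chemicals at 10 μM with a single library, the median count was 6 in a fit that took the other chemicals in, which called 196 genes with flumetralin, 149 with trifluralin and 23 with pendimethalin. In that fit, 8 of the 238 had more calls than flumetralin, 10 more than trifluralin and 35 more than pendimethalin. The root mean square deviation over all genes was highest with flumetralin at 0.467, pendimethalin at 0.441 and trifluralin at 0.427. These were inside the vehicle range of 0.264 to 0.5264. Of the 49 vehicle libraries, 1 had a larger value than flumetralin, 1 than pendimethalin and 4 than trifluralin. With trends on length and GC content removed, trifluralin had 95 calls, flumetralin 198 and pendimethalin 44.

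**Figure D5:**
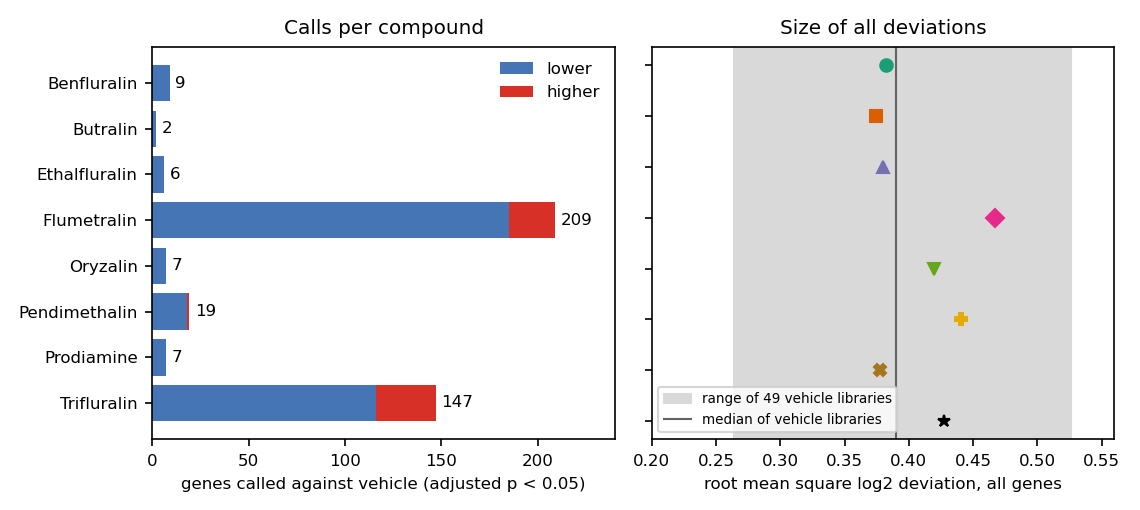
Left, number of genes called against vehicle with each compound (limma, adjusted p under 0.05), blue for lower and red for higher. Right, root mean square log2 deviation over all genes with each compound, on the range (grey) and median (line) of 49 vehicle libraries. Flumetralin (209) and trifluralin (147) had most calls. No compound exceeded the vehicle range in the size of its deviations. Of the 49 vehicle libraries, 1 lay above flumetralin, 1 above pendimethalin and 4 above trifluralin.

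With flumetralin, 185 genes were lower and 24 higher. Egr1, Egr3, Egr4, Kcnh3, Fasn, Rnf145 and the HIVEP genes Hivep2 and Hivep3 were among those called lower. The list of 65 potassium channel genes was drawn up after the values were seen. In it 7 were lower and none higher, beside 185 lower and 24 higher of all 13304 genes. The largest falls were in genes of low level: Tmem210 at -5.29, Lemd1 at -3.98 and Adam4 at -2.93, with 0.436, 1.44 and 1.37 CPM in vehicle. The largest rises were those of the NOD-like receptor Nlrc5 at 2.39, the vinexin gene Sorbs3 at 1.88 and the dynein heavy chain Dnah1 at 1.60. With trifluralin, 116 genes were lower and 31 higher. Besides the tubulins, Tmsb15b2 (-4.88), Zswim7 (-3.76) and Drd2 (-3.40) fell most, and the myosin Myo5c (2.82), 1700101I11Rik (1.418) and the interferon-induced membrane protein Ifitm7 (1.22) rose most.

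The remaining compounds had few calls. With pendimethalin 18 genes fell, led by 2010106C02Rik (-5.26), C630031E19Rik (-4.03) and the ubiquitin ligase Trim65 (-2.84), and the transcription factor Elk1 rose by 1.02. Srebf1, Mylip, Drd1a, Ntng2 and Hivep2 were also called lower with it. With prodiamine 7 genes fell, with Idnk (-2.23), Fasn (-1.05) and Rnf145 (-0.91) as the largest, and B4galt5, Snn and Tmem50b were among the rest. With ethalfluralin 6 fell, among them the neuropeptide neurotensin Nts (-3.50), Adora2a (-3.36) and the death adaptor Cradd (-2.97). With benfluralin 9 fell, led by Rps16 (-4.27), Fbxo2 (-2.79) and BC020402 (-2.65), with oryzalin 7, led by 1810022K09Rik (-4.64), Rpp21 (-3.55) and Vegfc (-3.33), and with butralin 2, Prtn3 (-4.71) and Zfp951 (-2.26). The genes called were under 10 CPM for 6 of 9 with benfluralin, 4 of 7 with oryzalin, 4 of 6 with ethalfluralin and both with butralin, and for 1 of 7 with prodiamine.

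All 28 pairs of compounds were compared at the shared concentration and time, with p-values adjusted over all genes and pairs together. Each pair set 1 library against 1, with the spread taken from the 49 vehicle libraries. Calls per pair ranged from 0 for benfluralin and butralin to 22 for flumetralin and trifluralin, and 147 were made in all. There were 74 with the spread from vehicles and other chemicals, and 302 with p adjusted within each pair. Fasn was higher with butralin than with flumetralin by 1.27 (95% interval 0.79 to 1.75, adjusted p = 0.0195) and than with prodiamine by 1.21 (95% interval 0.73 to 1.69, adjusted p = 0.0284). No tubulin gene was called between any pair. In the 7 structurally close pairs the median half-width of the 95% interval was 0.714, and between 49.3% and 52.7% of genes had an interval within 1 on the log2 scale, and for the rest the interval reached beyond 1.

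Trifluralin and benfluralin are isomers, with a pair of propyl groups or a butyl and an ethyl group on the nitrogen. They differed in 10 genes (0.0752%), 8 of them higher with benfluralin, with Tmsb15b2 (6.04), the matrix gene Emid1 (3.71) and the ATP synthase subunit Atp5g1 (3.36) leading. Tuba1a was higher with benfluralin by 0.52 (95% interval 0.15 to 0.89, adjusted p = 0.516) and Fasn by 0.36 (95% interval -0.12 to 0.84, adjusted p = 0.927), neither past the threshold. Prodiamine is trifluralin with an amino group added to the ring. This pair differed in 8 genes (0.0601%), led by Tmsb15b2 (6.07), Btbd17 (3.56) and the calcium-binding Necab2 (2.16), all higher with prodiamine. Fasn differed between them by -0.20 (95% interval -0.68 to 0.28) and Tuba1a by 0.62 (95% interval 0.25 to 0.99, adjusted p = 0.325). Oryzalin carries a sulfonamide in place of the trifluoromethyl group of trifluralin. It differed in 4 genes (0.0301%), Folh1 (-3.35), the mitochondrial ribosome genes Mrpl33 (3.27) and Mrpl3 (1.33), and Gm1821 (-0.76). Tuba1a was higher with oryzalin by 0.64 (95% interval 0.264 to 1.006, adjusted p = 0.296) and Fasn by 0.65 (95% interval 0.17 to 1.13, adjusted p = 0.559), again without passing.

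Benfluralin, ethalfluralin and flumetralin share the ring and an ethyl group on the nitrogen and differ in the second group there, which is butyl, methallyl or a halogenated benzyl. Benfluralin and ethalfluralin differed in 3 genes (0.0225%), Cradd (3.65), Nts (3.34) and the interneuron factor Lhx6 (-1.49). Ethalfluralin and flumetralin differed in 3 (0.0225%), Nts (-3.64), the Mediator subunit Med17 (1.79) and Sart3 (1.47). Benfluralin and flumetralin differed in 6 (0.0451%), led by the complement gene C1qa (3.80), Irak2 (3.39) and Nlrc5 (-3.12). Egr1 was higher with benfluralin than with flumetralin by 1.49 (95% interval 0.70 to 2.29, adjusted p = 0.202) and higher with ethalfluralin by 1.62 (95% interval 0.83 to 2.42, adjusted p = 0.13), and neither passed. Butralin and pendimethalin, both with 1 branched alkyl group on the nitrogen, differed in 3 genes (0.0225%), C630031E19Rik (5.16), Fam132a (-4.52) and the splicing factor Pnn (1.00). Srebf1 differed between them by 1.27 (95% interval 0.62 to 1.91, adjusted p = 0.167) and Tuba1a by 0.18 (95% interval -0.19 to 0.55), below the threshold for a call. Most genes that led a pair were under 10 CPM in the vehicle count libraries, and each of these values rests on a single library per compound.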

How the data were processed

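Polyadenylated RNA of mouse cortical neuron cultures was sequenced after exposure to chemicals. According to the methods, the authors removed ribosomal reads, aligned with TopHat to mm9, computed RPKM on RefSeq models, kept genes detected in most samples, quantile normalised, centred each gene and took out effects of the culture and of the sequencing run by mixed modelling. The deposited screen values are these batch-adjusted log10 deviations, for 13304 genes, and the labels name no batch, so no within-batch value could be given. The deposited counts of 4 vehicle libraries from another experiment of the series, with totals of 2778615 to 7833440, were used only as levels in CPM, and another deposited table was not used here.

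The log10 values were converted to log2 and fitted with limma 3.58.1 in R 4.3.3, with a trended empirical Bayes variance, two-sided tests and Benjamini-Hochberg adjustment over all genes. The 8 compounds, 1 library each, were compared as a class with 49 vehicle libraries and with 249 other chemicals at 10 μM (each the median of its libraries). They were then compared in structural groups, singly and in 28 pairs. Each main fit used a common spread for all its samples, most of which were vehicles or other chemicals. The scripts were tested on simulated data, in which all compounds of a class had the same shift and the spread of the vehicle libraries. Classes whose compounds differ from each other were not simulated. Tables were handled with pandas 2.3.3, numpy 2.4.6 and scipy 1.17.1 under Python 3.11.15. Transcript length and GC content were matched for 12653 genes (95.1%), and splines with 4 degrees of freedom took their trends out of each library in an alternative.

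Named genes were all tubulins, the 10 largest rises and falls against vehicle, 5 per direction in other class comparisons, 3 per direction and compound, 3 per close pair, and up to 4 called members of each list or, with none called, the member of smallest p. Genes outside this rule are said to be chosen after their values were seen, as are the members of calls that number 5 or fewer. The members and the lists were chosen with earlier results of these data known. Alternatives were other filters, thresholds, variance models, centring and spreads, and leaving out each compound. The alternatives with matched transcripts, trends removed, a minimum of 10 CPM, or flumetralin and trifluralin left out together were chosen after seeing the data. Some genes that the rule names are not reported here.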

Additional observations from a re-analysis of the deposited data

Results flagged for a closer look

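Among the 8 compounds, the lowest or highest value of 73 genes and 25 list medians was set against Dixon's 95% critical value, which chance passes in about 1 in 20 cases. It was passed by 21 of these 98 values, many of them in genes that share a compound and are not independent. Many of the genes were named because they were called in these same libraries. The rate of 1 in 20 therefore does not apply to this set, and the 21 are only a description.

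Flumetralin stood apart for Egr3 (-2.66), Sv2b (-1.09), Rbfox3 (-0.812), Neurod2 (-0.712), Slc17a7 (-0.6), Cplx2 (-0.594) and Mrap2 (1.88), and for the median of the ATF4 targets (0.314), all as log2 deviations from the vehicle mean. The ATF4 median was inside the vehicle range (up to 0.367). Trifluralin did so for Tuba1a (-0.543), Tuba1b (-0.534), Tubb3 (-0.501), Tubb2a (-0.402), Tubb4a (-0.364), Clip3 (-0.437) and Rrbp1 (1.02), and for the medians of the tubulins (-0.275) and of the respiratory chain subunits (-0.181), and both medians were inside the vehicle ranges, which reached -0.351 and -0.316. Ethalfluralin was apart for Adora2a (-3.36) and the median of the synaptic genes (-0.157), which was just below the vehicle range (down to -0.154). Pendimethalin was apart for Drd1a (-1.67) and the median of tubulin folding and modification genes (0.126), which was above the vehicle range (up to 0.115).

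Structurally close compounds differed by limma's test in 10 genes for benfluralin and trifluralin, 8 for prodiamine and trifluralin, 4 for oryzalin and trifluralin, 3 for benfluralin and ethalfluralin, 3 for ethalfluralin and flumetralin, 6 for benfluralin and flumetralin and 3 for butralin and pendimethalin.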

How the results depend on the processing

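No named gene that was called changed direction. Against vehicle the 267 calls became 27 among variable genes only, 95 at a threshold of 0.01 and 85 without flumetralin and trifluralin together, and ranged from 74 (without flumetralin) to 368 (without trifluralin) when 1 compound was left out, with 147 without pendimethalin. Against other chemicals the 45 calls became 1 among variable genes, 12 at 0.01 and 24 with single libraries in place of medians, and ranged from 13 (without flumetralin) to 54 (without trifluralin), with 23 without pendimethalin and 24 without prodiamine. Against antitubulin chemicals the 1 call became 0 at 0.01 and 2 with array weights, and ranged from 0 to 3, and without thiophanate the 1 call was another gene, which was lower. The trifluoromethyl contrast gave 1 call and the alkyl contrast 2 among variable genes, and removals gave 0 to 3 and 0 to 2. Single compounds had 406 calls in all, with 107 among variable genes and 162 at 0.01. Pairs had 147, with 80 among variable genes, 28 at 0.01, 74 with the spread taken from vehicles and other chemicals, and 302 with p adjusted within each pair. Among variable genes fewer genes were tested, and the cause of the other moves was not tested.

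Of the values for single genes, 1490 kept their side of the threshold, 261 no longer passed and 20 came to pass. Of the counts per compound or pair, 174 stayed within 1.5 times and 94 did not. No paired analysis was possible because each compound had 1 library and the labels do not tie it to a vehicle library. Each compound rests on a lone library of unknown depth, and between close compounds the median 95% interval reached 0.714 on the log2 scale to either side.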
